A study of Mus musculus with 8 samples.

Results

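Cd28, Ctla4 and Icos lie next to each other on mouse chromosome 1 and encode related receptors of T cells. They were studied here as 1 cluster, through the 105 ATAC-seq sites, of 79758 in the series, whose midpoint falls between 60.78 and 61.1 Mb of chromosome 1 in the mouse build mm9. The sites were chosen by position alone, and by this choice the window holds the genes in the order Cd28, Ctla4, Icos. The cluster itself was chosen with earlier results of these data known. ATAC-seq uses a transposase that cuts open chromatin, so that counts at a site report its accessibility. The cells were regulatory T (Treg) cells sorted from spleen and lymph nodes of mixed bone marrow chimeras, in which marrow of more than 1 donor develops in the same host. The 4 groups were wild type (WT) cTreg (central), WT eTreg (effector), Pggt1b-deficient cTreg and Pggt1b-deficient eTreg cells, with 2 libraries each. Pggt1b is the gene of the beta subunit of the type I geranylgeranyl transferase, the enzyme that attaches a lipid to small GTPases and other proteins. How the gene was deleted, in which cells the deletion was driven, the ages of the mice and whether libraries came from separate hosts were not stated in the labels. A p-value therefore sets a difference between groups only against the spread between libraries of a group, estimated over all groups. That spread may be technical.

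CD28 is the main costimulatory receptor of T cells and binds CD80 and CD86 on antigen-presenting cells. CTLA-4 binds the same ligands with higher affinity, is made constitutively by Treg cells under control of Foxp3, and is needed for their suppressive function. ICOS binds ICOS ligand, signals through phosphatidylinositol 3-kinase and is known as a surface marker of effector Treg cells. In the RefSeq annotation of GRCm38.p6, Cd28 (gene ID 12487), Ctla4 (12477) and Icos (54167) are the only protein-coding genes from Cd28 to Icos. The same stretch holds the long noncoding RNA genes 2310016D23Rik, Gm38137, Gm39650 and Gm34649 and 4 pseudogenes. That annotation belongs to another build than the counts, so sites were not tied to a gene, exon or promoter and are named by their mm9 position. For the same reason the labelled cell types were not checked against marker genes.

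The RefSeq promoter table of GRCm38.p6 matched 1 of the 3 genes, Ctla4. Its 250 bases before the start, chr1:60908775-60909024 on the plus strand of that build (not mm9), are shown because Ctla4 was the only gene matched. Capitals mark the match to the NFAT core.

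Ctla4 promoter: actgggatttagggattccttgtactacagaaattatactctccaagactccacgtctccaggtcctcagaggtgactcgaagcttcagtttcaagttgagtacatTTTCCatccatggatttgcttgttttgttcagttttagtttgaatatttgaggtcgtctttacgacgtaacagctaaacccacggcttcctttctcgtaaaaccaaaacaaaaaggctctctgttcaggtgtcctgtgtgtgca

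Both strands were searched for 7 motifs. GGAAA, the core bound by NFAT factors that act downstream of the T cell receptor, matched once, on the minus strand, at -144 from the start. Of the 32851 windows of 250 bases in the table, 55.6% hold that motif. The other motifs had no match in these letters. They were the AP-1 motif TGANTCA, found in 6.75% of the windows, the RUNX motif TGTGGT, found in 14%, and the forkhead motif TGTTTAC, found in 3.17%. The STAT motif TTCNNNGAA is found in 7.02% of the windows, the TCF and LEF motif CTTTGAA in 4.46% and the TATA box letters TATAAA in 12.4%. A match describes letters and not a bound site.

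Library totals ran from 7153991 to 14974253 counts in 6 libraries and were 2255214 and 1664702 in Pggt1b-deficient eTreg cells. In these 2 shallow libraries the median count of the 105 sites was 7 and 5, against 24 to 42 in the others, and 17 and 20 of the sites had no count, against 0 to 2. The median width of a site was 78 bp (range 4 to 691 bp). They formed 7 stretches separated by gaps of at least 10 kb, of which those with the most sites held 31 at chr1:60792912-60838934 and 44 at chr1:60909797-60977731. Of the 105 sites, 100 passed the filter on low counts, and the other 5, with 2.5 to 5.25 counts on average, were not tested.

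As a whole, the cluster was less accessible in eTreg than in cTreg cells, and in Pggt1b-deficient eTreg cells it lay between the 2 WT subsets. Its 105 sites held 0.109% and 0.109% of all counts in the 2 WT cTreg libraries, with 95% Clopper-Pearson intervals of 0.107% to 0.112% in both. WT eTreg libraries had 0.0750% (0.0727% to 0.0773%) and 0.0739% (0.0720% to 0.0759%). Pggt1b-deficient cTreg libraries had 0.117% (0.114% to 0.120%) and 0.111% (0.108% to 0.114%). Pggt1b-deficient eTreg libraries had 0.0882% (0.0828% to 0.0939%) and 0.0936% (0.0871% to 0.100%). The intervals take every 2 counts as 1 observation and cover counting error only.

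**Figure D1:**
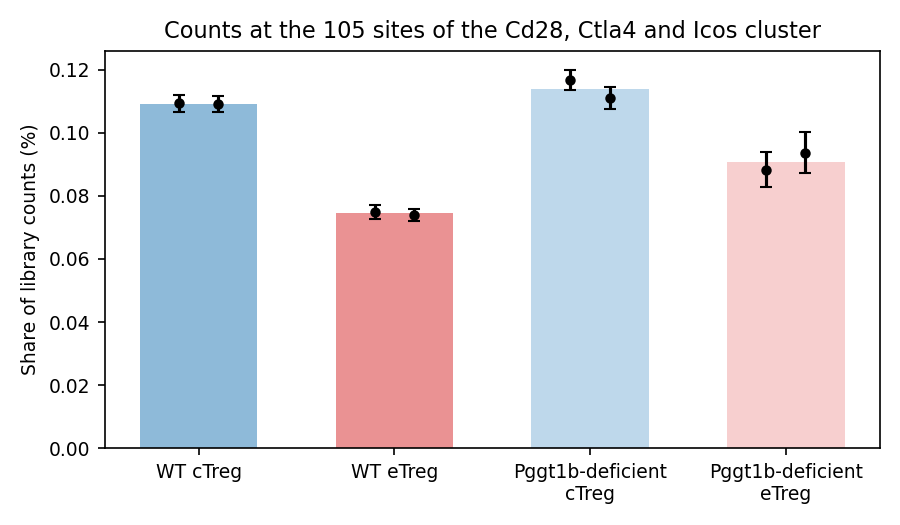
Share of each library's counts (percent, y axis) at the 105 sites. Bars are group means, points are the 2 libraries of a group and error bars are 95% Clopper-Pearson intervals; both WT eTreg libraries, at 0.0750% and 0.0739%, are the lowest of the 8.

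From low to high the group means were 0.0745 ± 0.00073% for WT eTreg (SD, n = 2 libraries in every group), 0.0909 ± 0.0038% for Pggt1b-deficient eTreg, 0.109 ± 0.00022% in WT cTreg and 0.114 ± 0.0041% in Pggt1b-deficient cTreg cells. No 2 groups overlapped, but the last 2 differed by 0.0047 percentage points, little more than the SD of the higher group. The WT eTreg share was 0.682 of the WT cTreg share, and the Pggt1b-deficient eTreg share was 0.798 of that of Pggt1b-deficient cTreg cells. With 2 libraries against 2, the smallest p of an exact permutation test is 0.33, and no other test of these shares was run. In bulk cells, a lower share may come from fewer cells with an open site or from less opening in each cell, and these cannot be told apart.

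The WT comparison asked how the chromatin of the cluster differs between effector and central Treg cells. In WT eTreg cells 39 of the 100 tested sites were less accessible and 6 more accessible than in WT cTreg cells (edgeR quasi-likelihood test, adjusted p under 0.05). Over all 75352 sites tested, 14.9% were called lower and 13.8% higher (28.7% in either direction). The share of cluster sites that fell was thus above the background and the share that rose below it. The median log2 fold change was -0.54 over the 100 sites and 0.00 over all sites. At the 39 sites that fell it ranged from -3.0 to -0.28, with a median of -1.16. Among the 24 cluster sites with a mean of at least 100 counts, 17 fell and none rose. Another 14 fell and 4 rose among the 40 sites with 20 to under 100. The shares of all sites in these count classes were not computed, so these counts are not set against a background. The 45 calls became 23 without WT eTreg replicate 2, 25 without WT cTreg replicate 2 and 29 without WT cTreg replicate 1.

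**Figure D2:**
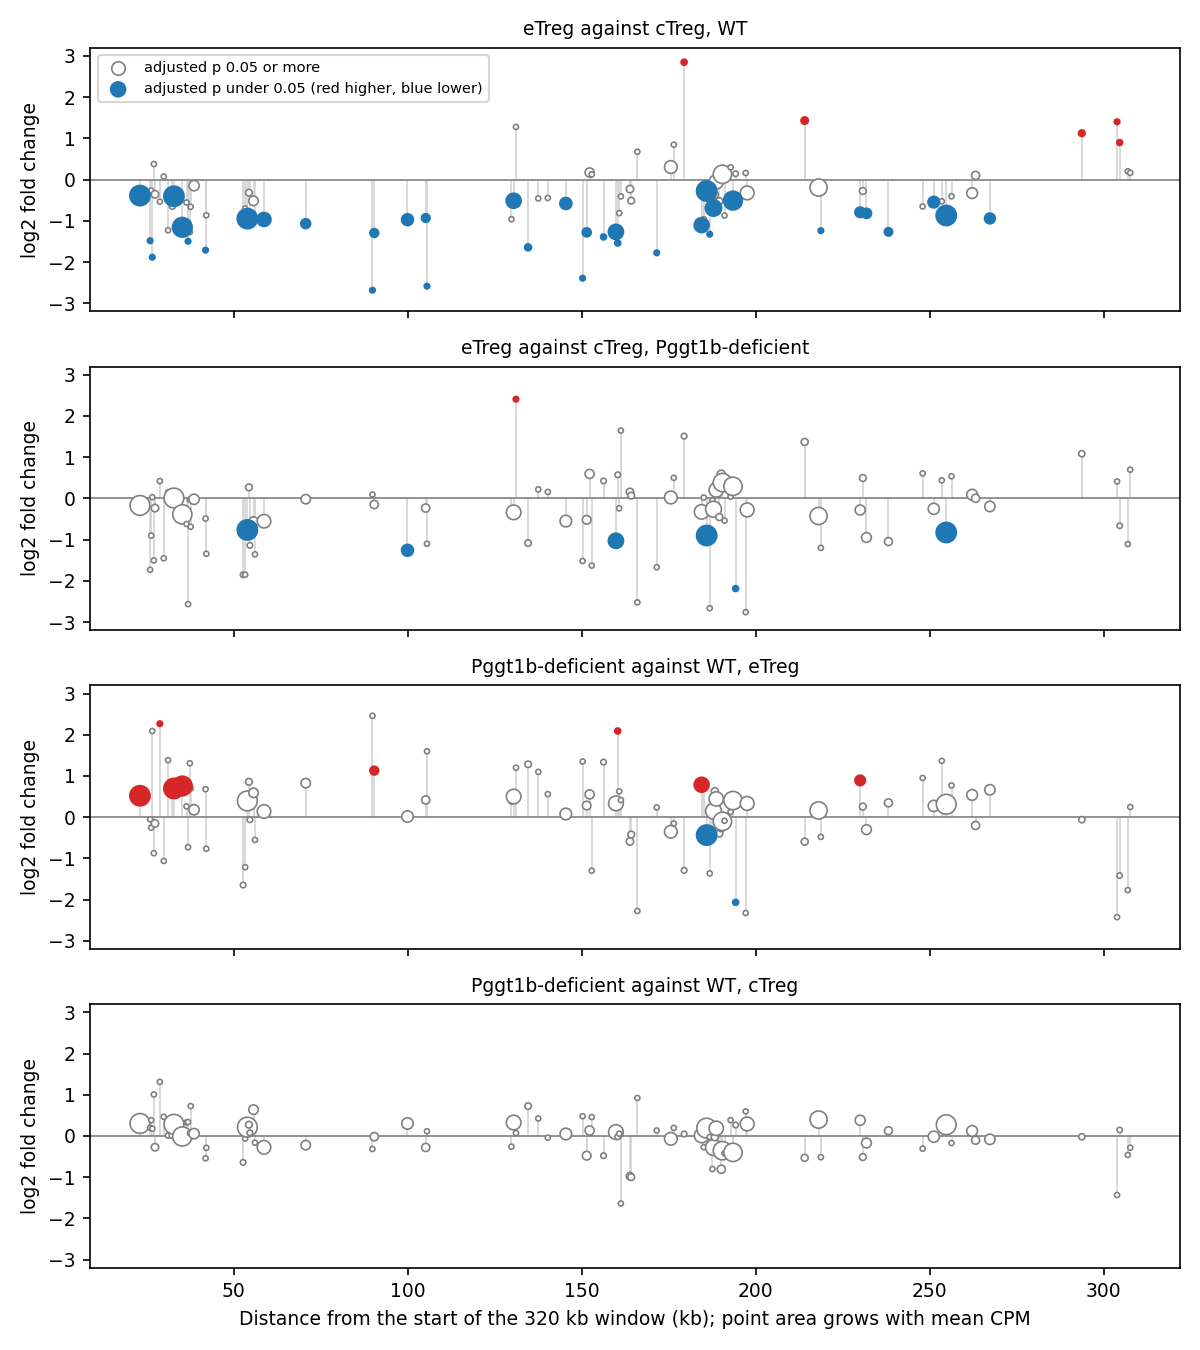
Log2 fold change (y axis) of the 93 tested cluster sites with counts in every group, by distance in kb from the start of the window (x axis), in 4 comparisons. Filled points have an adjusted p under 0.05 (red higher, blue lower), open points do not, and point area grows with mean CPM; falls in WT eTreg cells spread over most of the window, and the rises lie at 179 kb and beyond.

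The site with the smallest adjusted p was chr1:60815138-60815429, 35.3 kb into the window. Its level, in CPM (counts scaled to a common library size, with TMM factors), was 54.0 and 52.8 in WT cTreg, 23.5 and 24.3 in WT eTreg, 57.3 and 48.3 in Pggt1b-deficient cTreg, and 49.3 and 29.6 in Pggt1b-deficient eTreg libraries. Both WT eTreg libraries lay below the other 6. The log2 fold change of WT eTreg against WT cTreg was -1.16 ± 0.13 (SE; edgeR adjusted p = 2.09e-09).

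At chr1:60939725-60939965, 159.8 kb into the window, CPM was 34.0 and 32.6 in WT cTreg, 13.5 and 14.1 in WT eTreg, 38.4 and 32.6 in Pggt1b-deficient cTreg, and 15.2 and 20.1 in Pggt1b-deficient eTreg libraries. Here all 4 eTreg libraries lay below all 4 cTreg libraries. The fall was -1.27 ± 0.15 in the WT (edgeR adjusted p = 6.85e-09) and -1.03 ± 0.21 in Pggt1b-deficient cells (edgeR adjusted p = 0.000881).

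The same order of subsets in both genotypes was seen at chr1:60833859-60834093, the site with the highest CPM per length of the cluster (21.5 CPM per 100 bp on average over groups). It had 57.9 and 62.5 CPM in WT cTreg, 29.5 and 32.8 in WT eTreg, 71.0 and 68.6 in Pggt1b-deficient cTreg, and 48.4 and 32.0 in Pggt1b-deficient eTreg libraries. Log2 fold changes of eTreg against cTreg were -0.95 ± 0.11 in the WT (edgeR adjusted p = 1.79e-08) and -0.77 ± 0.15 in Pggt1b-deficient cells (edgeR adjusted p = 0.000658). Towards the Icos end, chr1:61034600-61034844 had 58.0 and 58.4 CPM in WT cTreg, 34.9 and 29.1 in WT eTreg, 75.3 and 64.9 in Pggt1b-deficient cTreg, and 39.5 and 39.7 in Pggt1b-deficient eTreg libraries. All eTreg libraries were again below all cTreg libraries, by -0.87 ± 0.11 in the WT and -0.83 ± 0.15 in Pggt1b-deficient cells on the log2 scale (edgeR adjusted p = 6.69e-08 and 0.000203).

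Further sites fell in WT eTreg cells, all named by the same rule. The site chr1:60964328-60964589 went from 29.3 and 29.8 to 15.5 and 12.2 CPM (log2 fold change -1.10 ± 0.15), and chr1:60838564-60838934 from 27.2 and 31.0 to 13.3 and 16.3 CPM (-0.97 ± 0.16). The site chr1:60879876-60880063 went from 17.8 and 19.0 to 10.0 and 8.82 CPM (-0.97 ± 0.18). Lower levels were seen at chr1:60931358-60931534, from 13.2 and 12.5 to 6.30 and 4.41 CPM (-1.28 ± 0.24). The fall at chr1:60967764-60967975 went from 39.1 and 34.6 to 24.7 and 21.2 CPM (-0.69 ± 0.13), and that at chr1:60870365-60870495 from 10.3 and 9.11 to 4.36 and 3.6 CPM (-1.30 ± 0.25). In each of these 6, both WT eTreg libraries were below both WT cTreg libraries, and edgeR adjusted p ran from 2.96e-07 to 0.000124. The sites were named by small adjusted p, here from the same libraries, so this order follows in part from that choice.

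By level over the site, and not per length, the strongest sites were chr1:60802871-60803354 and chr1:60965643-60966166. The first, near the Cd28 end of the window, had 72.2 and 77.8 CPM in WT cTreg, 57.4 and 57.3 in WT eTreg, 92.0 and 93.2 in Pggt1b-deficient cTreg, and 68.2 and 99.0 in Pggt1b-deficient eTreg libraries. It fell by 0.39 on the log2 scale (SE 0.10) in WT eTreg cells (edgeR adjusted p = 0.00281). The second, 185.9 kb into the window, had 65.2 and 60.8 CPM in WT cTreg, 52.2 and 51.9 in WT eTreg, 68.5 and 75.4 in Pggt1b-deficient cTreg, and 33.2 and 45.0 in Pggt1b-deficient eTreg libraries. Its log2 fold change in the WT was -0.28 ± 0.10 (edgeR adjusted p = 0.038). Leaving out any of the 4 WT libraries, testing without the filter on low counts, or using DESeq2 ended that call, with adjusted p from 0.00574 to 0.243 over all alternatives. The call at chr1:60802871-60803354 was lost without WT cTreg replicate 2 (4.46e-05 to 0.076).

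The 6 called sites that rose are given next. They rose in WT eTreg cells against the direction of the other 39 called sites. Of the 100 tested sites, called or not, 23 had a positive log2 fold change. Apart from the first, which the naming rule holds, the 6 were chosen after their values were seen. At chr1:60959374-60959492, 179.4 kb into the window, CPM was 1.61 and 0.792 in WT cTreg, 7.97 and 9.44 in WT eTreg, 1.12 and 1.38 in Pggt1b-deficient cTreg, and 4.04 and 2.96 in Pggt1b-deficient eTreg libraries. The WT eTreg libraries were the highest and the Pggt1b-deficient eTreg libraries came next, above all 4 cTreg libraries. The WT log2 fold change was 2.85 ± 0.37 (edgeR adjusted p = 7.97e-08). The 13 bp site chr1:60959775-60959788, the next in position, rose with it, from 4 and 2 to 17 and 16 counts (2.39 ± 0.85, edgeR adjusted p = 0.0315, 0.00471 to 0.249 over all alternatives, 5 of which ended the call).

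The site chr1:60993949-60994183 had 2.58 and 4.75 CPM in WT cTreg, 9.73 and 10.1 in WT eTreg, 2.58 and 2.48 in Pggt1b-deficient cTreg, and 8.52 and 4.15 in Pggt1b-deficient eTreg libraries. It rose by 1.43 ± 0.29 in the WT (edgeR adjusted p = 0.000211), and in Pggt1b-deficient cells the value was 1.37 ± 0.46 (edgeR adjusted p = 0.055). The other rises were in the last stretch of the window, chr1:61073551-61087616. There chr1:61073551-61073790 rose by 1.13 ± 0.33, chr1:61083773-61083816 by 1.40 ± 0.49 and chr1:61084511-61084588 by 0.90 ± 0.33 on the log2 scale (edgeR adjusted p = 0.00837, 0.0283 and 0.0347). These calls were less stable: the first was lost without WT cTreg replicate 2, without WT eTreg replicate 2 or with DESeq2 (adjusted p 0.00105 to 0.144 over all alternatives). The other pair was lost without any WT library or with DESeq2 (0.00165 to 0.219 and 0.00948 to 0.226).

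Calls in the WT subset comparison were also counted by stretch, where 14.9% of all sites tested were called lower and 13.8% higher. In the first stretch of 31 sites, at the Cd28 end, 12 fell and none rose in WT eTreg cells, and its summed level went from 346.0 and 353.5 CPM in WT cTreg to 217.9 and 219.7 CPM in WT eTreg libraries. All 5 sites of the stretch chr1:60869894-60885597 fell. In the stretch chr1:60909797-60977731, with 42 tested sites, 14 fell and 2 rose, and its summed level went from 467.8 and 465.6 to 367.6 and 350.8 CPM. At chr1:61009835-61047432, 6 of 12 tested sites fell and none rose. In the last stretch, beyond it, 3 of 5 sites rose and none fell, and the summed level went from 11.2 and 11.6 to 19.3 and 21.5 CPM. These 3 are the less stable calls given above, each lost with DESeq2. The nearest site before the window, chr1:60770662-60770721, also fell (log2 fold change -2.25, edgeR adjusted p = 1.49e-05), and the nearest after it, chr1:61101664-61101724, did not pass the test (0.10, edgeR adjusted p = 0.937).

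**Figure D3:**
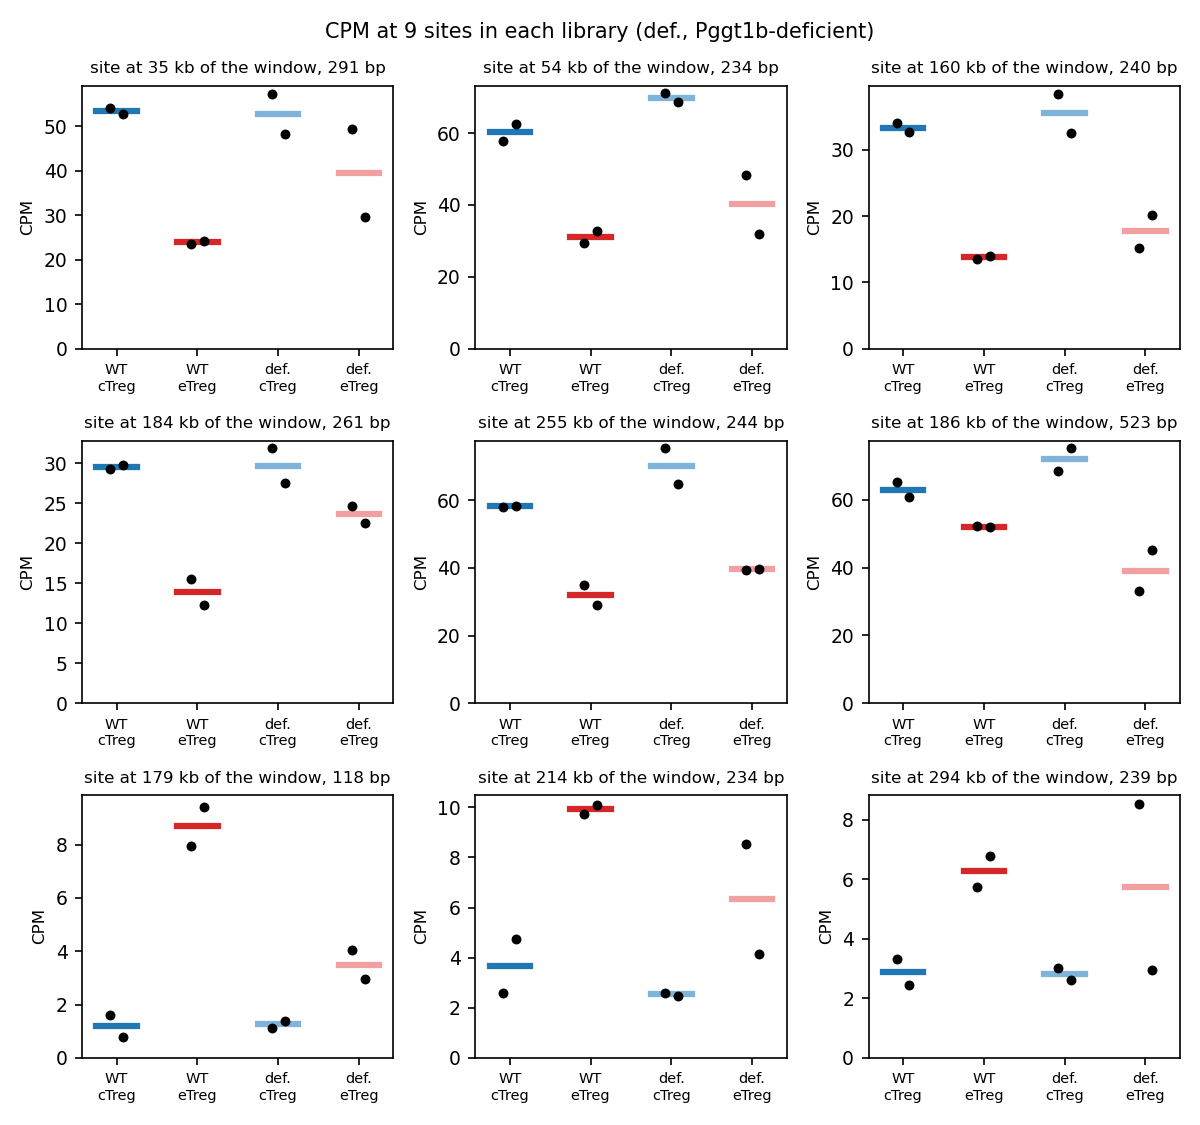
CPM (y axis, from 0) at 9 cluster sites in each of the 8 libraries, by group; points are libraries and lines are group means. The first 6 sites were lower and the last 3 higher in WT eTreg than in WT cTreg libraries, and the Pggt1b-deficient eTreg libraries lay apart from each other at several sites, such as 49.3 and 29.6 CPM at 35 kb.

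Without Pggt1b, fewer cluster sites were called between eTreg and cTreg cells, and most of those called were lower in eTreg cells. In Pggt1b-deficient cells 8 of 100 tested sites were lower and 1 higher in eTreg cells (edgeR, adjusted p under 0.05), where 4.52% of all sites were lower and 4.59% higher (9.12% in either direction). The median log2 fold change of the 100 sites was -0.30, against -0.06 over all sites. With the 7 sites that had no count in Pggt1b-deficient eTreg cells set at their bounds, these were -0.24 and -0.02. Of the 8 lower sites 7 were also among the 39 that fell in the WT, which is 87.5% of the shorter and 17.9% of the longer list. Over all sites tested, the same overlap was 2152 sites, 63.1% of the 3409 that were lower without Pggt1b and 19.2% of those that fell in the WT. With 8 sites in the shorter list, nothing particular to the cluster is read from this. The low counts of Pggt1b-deficient eTreg libraries limit what this comparison can call, so the lower number does not measure a smaller difference. Leaving out Pggt1b-deficient eTreg replicate 2 gave 15 calls, and leaving out replicate 1 of that group or Pggt1b-deficient cTreg replicate 2 gave 5.

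Besides the sites at 54.0, 159.8 and 254.7 kb given above, the lower sites were chr1:60965643-60966166, chr1:60879876-60880063, chr1:60974154-60974310 and 2 sites without any count in Pggt1b-deficient eTreg libraries. The first of these, 1 of the strongest of the cluster, had a log2 fold change of -0.90 ± 0.14 between Pggt1b-deficient eTreg and cTreg cells (edgeR adjusted p = 4.26e-05), against -0.28 ± 0.10 in the WT. The interaction, which tests that difference of differences, gave -0.62 ± 0.18 with an edgeR adjusted p of 0.064. The site chr1:60879876-60880063 had 23.7 and 21.7 CPM in Pggt1b-deficient cTreg and 8.07 and 11.3 CPM in Pggt1b-deficient eTreg libraries (log2 fold change -1.26 ± 0.27, edgeR adjusted p = 0.00178, 0.0654 without Pggt1b-deficient eTreg replicate 1). The WT value there was -0.97 ± 0.18. At chr1:60974154-60974310 only 2 and 2 counts were left in Pggt1b-deficient eTreg libraries, from 31 and 44 in Pggt1b-deficient cTreg libraries. The sites chr1:60792912-60792962 and chr1:60831480-60831527 went from 16 and 17 and from 15 and 17 counts to none. Against a floor of 6 counts over the group, they were 1.33-fold and 1.29-fold lower (edgeR adjusted p = 0.0497 and 0.0471). These folds leave out the error of the cTreg counts. These 2 calls ended in 11 and 10 of 12 alternatives, and that at chr1:60974154-60974310 in 8 of 14 (adjusted p 0.0443 to 0.189, 0.043 to 0.186 and 0.0324 to 0.257). The higher site, chr1:60911095-60911159, had 1.12 and 0.966 CPM in Pggt1b-deficient cTreg and 5.38 and 5.93 CPM in Pggt1b-deficient eTreg libraries (2.41 ± 0.63, edgeR adjusted p = 0.0117). That call was lost without either Pggt1b-deficient cTreg library or without Pggt1b-deficient eTreg replicate 1 (adjusted p 0.0114 to 0.0575 over all alternatives). Its WT value was 1.28 ± 0.51 (edgeR adjusted p = 0.0571).

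The 31 sites that fell in the WT and had a mean of at least 20 counts were chosen by their WT values, so smaller values in the other genotype follow in part from that choice. Of these 31, 27 had a negative log2 fold change in Pggt1b-deficient cells too, and 25 had one of smaller size there. These are 87.1% and 80.6%, against 86.7% and 79.1% of the 8775 such sites of the series. The median was -0.97 in the WT and -0.52 in Pggt1b-deficient cells, against -1.09 and -0.58 over the 8775 sites, so the cluster was close to the series in each of these measures. Over the 64 cluster sites with a mean of at least 20 counts, the log2 fold changes of the 2 genotypes correlated at r = 0.48 across sites, and at 0.531 over the 50949 such sites of the series. These comparisons share no library, but sites of the same libraries are not independent replicates.

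**Figure D4:**
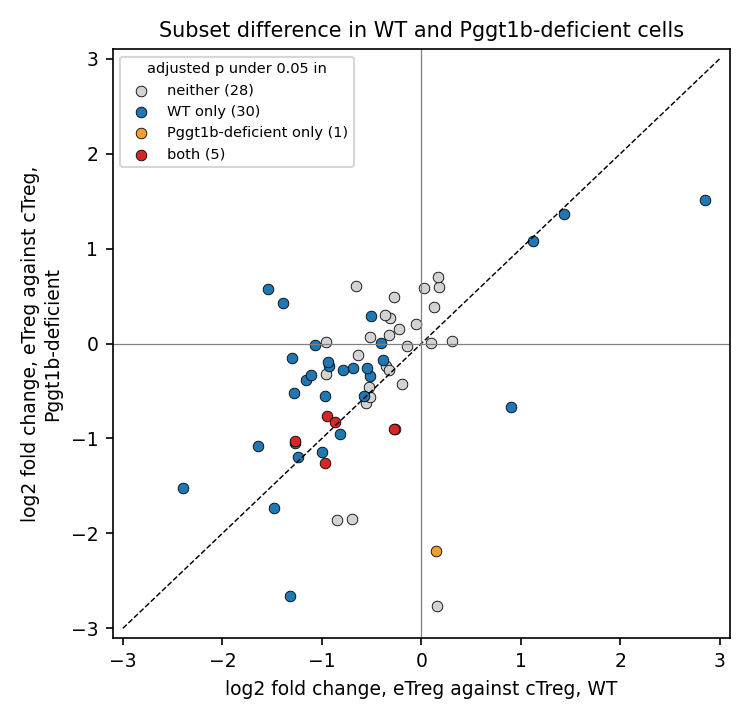
Log2 fold change of eTreg against cTreg cells in the WT (x axis) and in Pggt1b-deficient cells (y axis) at the 64 cluster sites with a mean of at least 20 counts; the dashed line marks equal values. Colours give the comparisons with an adjusted p under 0.05: 30 sites in the WT alone, 5 in both and 1 in Pggt1b-deficient cells alone.

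In cTreg cells, no cluster site passed the test for a change on loss of Pggt1b. None of the 100 tested sites had an adjusted p under 0.05 (edgeR), where 2.21% of all sites did (0.53% higher and 1.69% lower). At 15 the unadjusted p was under 0.05, with 8 of them higher and 7 lower. The share of all sites at that unadjusted threshold was not computed. DESeq2 called 0 of the 42 sites to which it gave an adjusted p, and limma-voom called 6. The Pggt1b-deficient eTreg libraries are in neither group compared but enter the fit. The count was 6 without either of them, 5 without both and 8 with only the 4 cTreg libraries. Without both, chr1:60943805-60943949 and chr1:60944167-60944299, which lie next to each other at 164 kb, and chr1:60973119-60973810 were lower, and chr1:60802871-60803354 and chr1:60997977-60998136 were higher. The first of these had 7.73 and 9.50 CPM in WT cTreg against 4.71 and 4.00 CPM in Pggt1b-deficient cTreg libraries (log2 fold change -0.97 ± 0.28, edgeR adjusted p = 0.0596, and 0.0277 without the shallow pair). The second had 8.38 and 7.13 CPM against 4.49 and 3.17 CPM (-0.999 ± 0.31, edgeR adjusted p = 0.0769, and 0.0359 without the shallow pair). Over all alternatives that called chr1:60973119-60973810, its log2 fold change ran from -0.40 to -0.37.

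In eTreg cells, loss of Pggt1b went with higher accessibility at 8 cluster sites and lower accessibility at 3 of 100 tested (edgeR, adjusted p under 0.05). Of all sites, 4.66% were higher and 6.43% lower (11.1% in either direction), so the overall number called was at the background. The number called was 3 without WT eTreg replicate 2, 6 without Pggt1b-deficient eTreg replicate 1 and 7 without either WT cTreg library. The median log2 fold change was 0.24 in the cluster and -0.09 over all sites, or 0.30 and -0.04 with sites without counts at their bounds. This comparison and the WT subset comparison use the same WT eTreg libraries. The calls of these comparisons are therefore not set against each other.

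Of the 8, 4 lay in the first stretch, at the Cd28 end of the window, which holds 31 of the 100 tested sites. In that stretch 1 site was lower, and 16 log2 fold changes were positive and 15 negative. Their median was 0.14, against 0.24 in the cluster, so no gain particular to the Cd28 end is read from these calls. Of the 4 higher sites, 3 are strong sites. The site at 35.3 kb, chr1:60815138-60815429, was 0.76 ± 0.17 higher on the log2 scale without Pggt1b (edgeR adjusted p = 0.00263), but this call rested on Pggt1b-deficient eTreg replicate 1, without which the value was 0.30 (adjusted p 9.02e-05 to 0.44 over all alternatives). The site chr1:60812725-60813037 had 35.3 and 33.2 CPM in WT eTreg and 44.0 and 69.3 CPM in Pggt1b-deficient eTreg libraries (0.70 ± 0.15, edgeR adjusted p = 0.00191). The strongest site, chr1:60802871-60803354, was higher by 0.52 ± 0.12 (edgeR adjusted p = 0.00446). Both were called through Pggt1b-deficient eTreg replicate 2, which was the higher library, with log2 fold changes of 0.36 and 0.25 without it (adjusted p 0.000122 to 0.19 and 0.000251 to 0.266 over all alternatives). The 2 libraries thus differed in which of these neighbouring sites stood out. At these 3 sites both of them lay above both WT eTreg libraries, which follows in part from choosing sites called higher.

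At chr1:60964328-60964589, 184.5 kb into the window, the Pggt1b-deficient eTreg libraries lay closer together, with 24.7 and 22.5 CPM against 15.5 and 12.2 CPM in WT eTreg libraries. The log2 fold change was 0.79 ± 0.21 (edgeR adjusted p = 0.0112, 0.00973 to 0.127 over all alternatives, lost without WT eTreg replicate 2 or Pggt1b-deficient eTreg replicate 1). At chr1:60870365-60870495 CPM was 9.42 and 7.70 in Pggt1b-deficient eTreg, 4.36 and 3.6 in WT eTreg and 9.11 to 10.3 in the 4 cTreg libraries. The log2 fold change against WT eTreg was 1.13 ± 0.36 (edgeR adjusted p = 0.0338, a call that 7 of 14 alternatives ended). This site, chr1:60964328-60964589 and chr1:60815138-60815429 were named through low values in the same WT eTreg libraries. Higher values here therefore follow in part from that choice, and the values are only described. The other higher sites were chr1:60808811-60808865 (2.27 ± 0.67), chr1:60940332-60940394 (2.09 ± 0.55) and chr1:61009835-61010164 (0.89 ± 0.30). Their edgeR adjusted p was 0.0224, 0.00949 and 0.0438. The first rests on 6 and 9 counts in Pggt1b-deficient eTreg libraries and the second on 7 and 14. Both calls were lost without WT eTreg replicate 2 or Pggt1b-deficient eTreg replicate 2 (adjusted p 0.0183 to 0.193 and 0.00384 to 0.26 over all alternatives), and without the latter the second value was 1.29. The third was lost in 11 of 14 alternatives (adjusted p 0.0179 to 0.519).

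The lower sites were chr1:60965643-60966166, chr1:60974154-60974310 and chr1:60828772-60828853. The first had the lowest levels of all 8 libraries in the 2 Pggt1b-deficient eTreg libraries, and its log2 fold change against WT eTreg was -0.43 ± 0.15 (edgeR adjusted p = 0.046, 0.0113 to 0.47 over all alternatives, of which 12 of 14 ended the call). The site chr1:60964328-60964589, the next but 1 before it, was called in the opposite direction in the same libraries. At chr1:60974154-60974310, counts were 34 and 79 in WT eTreg and 2 and 2 in Pggt1b-deficient eTreg libraries (-2.07 ± 0.69, edgeR adjusted p = 0.0465, lost in 9 of 14 alternatives). The site chr1:60828772-60828853 went from 18 and 37 counts to none, at least 1.41-fold lower (edgeR adjusted p = 0.0302, lost in 5 of 13 alternatives).

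None of the 6 sites that rose in WT eTreg cells passed the test for Pggt1b loss in eTreg cells. They were called higher through the same WT eTreg libraries that this test uses. Lower values here therefore follow in part from that choice, and the values are only described. At chr1:60959374-60959492 the log2 fold change of Pggt1b-deficient against WT eTreg was -1.29 ± 0.46 (edgeR adjusted p = 0.0601), and the 2 groups of libraries did not overlap. At chr1:61083773-61083816 and chr1:61084511-61084588 it was -2.43 ± 0.89 and -1.42 ± 0.54 (edgeR adjusted p = 0.0717 and 0.0824). By contrast chr1:61073551-61073790 had -0.06 ± 0.42, with 8.52 and 2.96 CPM in the Pggt1b-deficient eTreg libraries on either side of the 5.75 and 6.79 CPM of WT eTreg.

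Whether the effect of Pggt1b loss differed between eTreg and cTreg cells was tested with the interaction over all 8 libraries. It was called at 2 of 100 cluster sites, both with the higher genotype difference in eTreg cells (edgeR, threshold as above), where 0.957% of all sites were called higher and 0.555% lower (1.51% in either direction). No call was left without WT cTreg replicate 1 or 2, WT eTreg replicate 2 or Pggt1b-deficient cTreg replicate 2. The 2 sites were chr1:60815138-60815429 and chr1:60973119-60973810. The second, the widest of the cluster at 691 bp, had 44.7 and 46.4 CPM in WT cTreg, 34.0 and 30.2 in WT eTreg, 34.2 and 34.9 in Pggt1b-deficient cTreg, and 43.1 and 41.5 in Pggt1b-deficient eTreg libraries. Its WT subset difference, -0.51 ± 0.11 (edgeR adjusted p = 0.000628), was thus opposite in sign to that of Pggt1b-deficient cells, 0.29 ± 0.15, which did not pass the test (edgeR adjusted p = 0.244).

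Among sites of the series with a mean of at least 20 counts, those most like chr1:60815138-60815429 in log2 CPM over the 8 libraries were chr4:6861449-6861880 (Pearson r = 0.996), chr2:57976191-57976368 (0.992) and chr6:99347976-99348078 (0.992). Within the cluster the most alike were chr1:60833859-60834093 (0.943), chr1:60964328-60964589 (0.926) and chr1:61018077-61018183 (0.92). These values, from 50948 sites compared over 8 libraries, are a description.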

How the data were processed

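ATAC-seq libraries were analysed from a table of raw whole-number counts per site deposited by the authors, with 1 column for each of 8 libraries. Per the submitters' processing notes, the tools were MACS2 2.1.1, bedtools, SAMtools, Picard 2.9.4 and Trimmomatic 0.36, with mouse build mm9. Alignment, read-end shifting, peak thresholds, pooling before peak calling and the counted unit (reads or cuts) are not given in these sources. Whether site starts count from 0 or 1 is not stated either, and positions are printed as deposited. Groups and replicate numbers came from the sample titles.

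The members and tests were chosen with earlier results of these data known. Counts were fitted in R 4.3.3 with edgeR 4.0.16 over the whole table: filterByExpr (75352 sites kept), TMM scaling, 1 mean per group over 8 libraries, quasi-likelihood F tests, two-sided, and Benjamini-Hochberg adjustment over all sites. A standard error is |log2 fold change| divided by √F. Named sites have a mean of at least 20 counts and an adjusted p under 0.05 in any of 5 contrasts, up to the 12 with the smallest adjusted p, plus the 3 with the highest CPM; others were named after their values were seen. Of counts from 1 to 10, 66.1% to 77.4% were even, so counts seem to come in pairs, and intervals and the floor of 6 counts over a group use pairs. Replicate libraries had equal counts at 2.75% to 14.4% of sites, and no 2 columns were identical. Alternatives were limma 3.58.1 (voom with group weights), DESeq2 1.42.0, RLE scaling, no filter, other sets of libraries and a replicate block. The procedure was tested on simulated data. A list of other genes of the pathway was not analysed here, since sites were tied to no gene.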

Additional observations from a re-analysis of the deposited data

Results flagged for a closer look

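At chr1:60815138-60815429 and chr1:60973119-60973810 the effect of Pggt1b loss differed between eTreg and cTreg cells by the interaction test. The interaction was 0.77 ± 0.21 on the log2 scale at the first (SE; edgeR adjusted p = 0.048, n = 2 libraries per group) and 0.80 ± 0.19 at the second (edgeR adjusted p = 0.021). At the first, Pggt1b-deficient minus WT was -0.01 ± 0.12 in cTreg and 0.76 ± 0.17 in eTreg cells, and 10 of 13 alternatives ended the call (adjusted p 0.00232 to 0.548). Without Pggt1b-deficient eTreg replicate 1 the interaction at this site was 0.31, and without replicate 2 of that group it was 1.05. At the second it was -0.40 ± 0.12 in cTreg and 0.40 ± 0.15 in eTreg cells, and 6 of 13 alternatives, all leaving out 1 library, ended the call (0.0212 to 0.121).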

How the results depend on the processing

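The number of cluster sites called in the WT subset comparison (45) was 30 with DESeq2 and 54 with limma-voom, and 23 to 49 with 1 library left out; it was 23 without WT eTreg replicate 2, 25 without WT cTreg replicate 2 and 29 without WT cTreg replicate 1. For Pggt1b loss in cTreg cells (0), it was 8 with only the 4 libraries compared, 5 without both Pggt1b-deficient eTreg libraries, 6 with limma-voom, and 0 to 6 with 1 library left out. For Pggt1b loss in eTreg cells (11), it was 6 with only the 4 libraries compared, 6 with limma-voom, 7 with DESeq2, and 3 to 10 with 1 library left out, with 3 without WT eTreg replicate 2 and 6 without Pggt1b-deficient eTreg replicate 1. For the subsets without Pggt1b (9), it was 5 to 15 with 1 library left out, 15 without Pggt1b-deficient eTreg replicate 2. The interaction (2) gave 1 with RLE scaling, limma-voom or DESeq2, and 0 to 3 with 1 library left out. Differences between replicates 1 and 2, compared between groups over all tested sites, correlated at -0.018 to 0.064. Counting noise lowers such correlations, so they do not tell whether replicate numbers mark shared hosts. With a replicate block the 5 counts were 41, 0, 8, 8 and 2. As a share of chromosome 1 counts at tested sites the cluster held 1.44% (WT cTreg), 1.00025% (WT eTreg), 1.504% (cTreg without Pggt1b) and 1.198% (eTreg without Pggt1b); with TMM library sizes the WT shares were 0.108% and 0.0765%. Of the values of single sites under alternatives, 521 kept their call, 139 lost it and 0 changed sign. Low depth in Pggt1b-deficient eTreg libraries limits every comparison that uses them. DESeq2 gave an adjusted p for 104, 42, 83, 81 and 42 cluster sites in the 5 comparisons, in the order above. The cause of these changes was not tested.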
